A study of Oryctolagus cuniculus with 12 samples.

Results

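The 3 rabbit cornea libraries labelled blue_light were compared with the 3 labelled GL, which together are 6 of the 12 libraries of the series. The comparison covered the 13314 of 29076 listed genes with at least 1 FPKM (fragments per kilobase of transcript, scaled to the depth of the library) in 3 or more of these 6 libraries. All libraries came from cornea of rabbits aged 6 months on a normal diet, and a treatment text of 6 weeks of light exposure stands on every library, the controls included. GL and RL are not spelled out in the labels, and neither wavelength nor intensity is given in the sources used here. Extraction used an RNeasy kit and library construction a SMARTer mRNA-seq kit, so each library is a bulk sample of whatever corneal layers were collected. The 3 RL and 3 control libraries served as background for each gene. Nothing in the labels ties a library to an animal of its own, so the p-values reflect the spread among samples that may be technical replicates.

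The cornea is a stratified epithelium of keratin-rich cells over a collagen stroma made by keratocytes, with a pumping endothelium on the inner face. Visible light of short wavelength carries more energy per photon than light of longer wavelength, and it can be absorbed by flavins, retinal-binding opsins and other pigments, with reactive oxygen as a by-product. Genes of the clock, of heat shock and antioxidant defence, of matrix and of epithelial differentiation are therefore commonly read out after illumination of the eye surface.

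Total counts were 40.9, 45.8 and 58.8 M (mega) in blue_light libraries and 64.7, 61.6 and 64.5 M in GL libraries, so every blue_light library was shallower than every GL library. Corneal identity was plain in both groups. KRT12, the keratin of the corneal epithelium, stood at 9036, 10770 and 10520 FPKM in blue_light and 12730, 12180 and 12020 FPKM in GL. KERA, the keratocyte proteoglycan keratocan, stood at 3406, 2518 and 2743 FPKM in blue_light and 2246, 2238 and 1914 FPKM in GL. The median correlation of log2 values was 0.961 between libraries of 1 group and 0.947 between the groups. The first principal component of the 6 libraries held 45.8% of the variance and separated blue_light from GL. Genes with a count of 1 to 20 numbered 2563, 2562 and 2389 in blue_light libraries against 1262, 1461 and 767 in GL libraries. Control 1 (2561 genes) and RL 1 (2486 genes) shared this pattern with blue_light, and the other control and RL libraries, at 1014 to 1300 genes, shared it with GL. These 5 libraries with many rarely counted genes, all blue_light ones among them, are called the low-count set below. Since no GL library belongs to it, the label and the set cannot be told apart within the 6 libraries.

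Between blue_light and GL, 13 genes changed, 10 higher and 3 lower in blue_light, by edgeR's quasi-likelihood test with a Benjamini-Hochberg adjusted p below 0.05. That is 0.0976% of the genes tested, 0.0751% for higher and 0.0225% for lower. HSPA13, a chaperone of the HSP70 family, RPL39 of the large ribosomal subunit, a copy of the gene for coupling factor 6 of ATP synthase and 7 copies of the gene for ribosomal protein L17 were higher. The secreted proteoglycan gene SPOCK2, the lipid flippase subunit gene TMEM30B and the guanine nucleotide exchange factor gene ARHGEF28 were lower. Many more genes separated the groups without passing the test. All 3 blue_light libraries lay above all 3 GL libraries for 2041 genes (15.3%) and below them for 2023 genes (15.2%). An unadjusted p below 0.05 was reached by 1280 genes higher in blue_light (9.61%) and 1098 lower (8.25%).

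**Figure D1:**
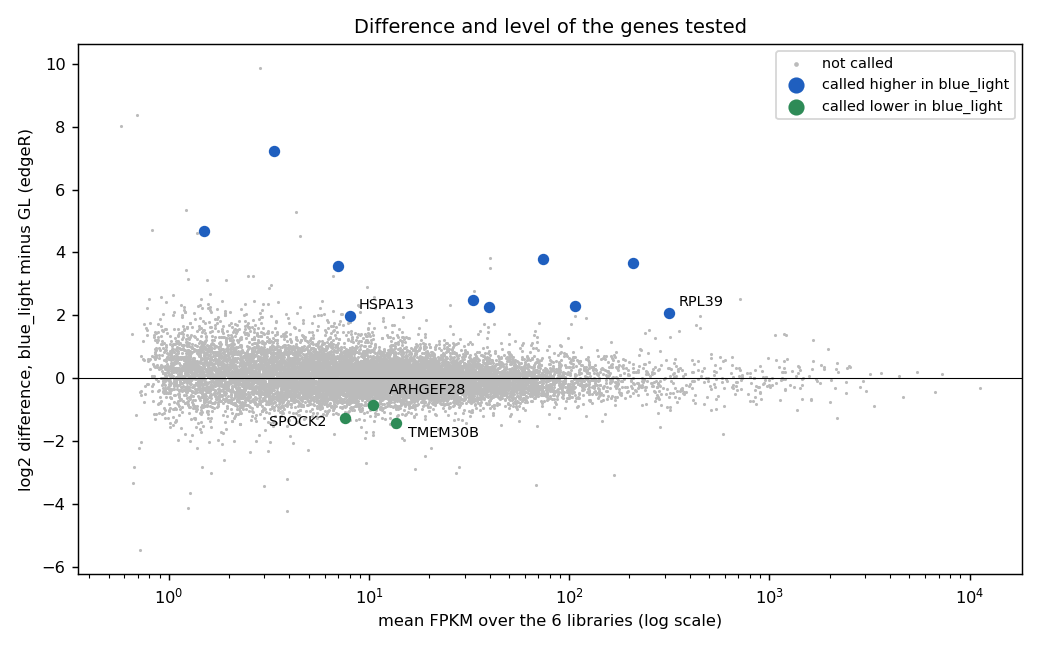
Log2 difference of blue_light minus GL (vertical axis, edgeR) against the mean FPKM over the 6 libraries (horizontal axis, log scale) for the 13314 genes tested. LOC100354651 and LOC100355319, which had almost no count in GL, are the 2 uppermost of the genes called higher and their heights have no exact value. The other 8 lie at log2 1.98 to 3.78 and the 3 called lower at −1.42 to −0.86, while many rarer grey genes with differences as large were not called.

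HSPA13 encodes a member of the HSP70 chaperone family found at the endoplasmic reticulum. It stood at 15.2, 12.6 and 10.9 FPKM in blue_light libraries and at 2.18, 3.45 and 3.87 FPKM in GL libraries. RL libraries held 14.7, 9.34 and 13.6 FPKM and control libraries 11.6, 11.1 and 12.1 FPKM. The lowest blue_light library was thus above every GL library, and the GL libraries were the only low ones of the 12. The difference was log2 1.98 ± 0.24 (SE, edgeR adjusted p = 0.0114), and over 22 alternatives it stayed between 1.70 and 2.16. The call held when any 1 library was left out. It ended in 5 of the 22 alternatives. In the 6 libraries alone the adjusted p was 0.0503, and with a replicate block added to these it was 0.0772. With total count as a covariate it was 0.129, and with the low-count set as a covariate 0.243 at log2 1.83. Without 3 cornea libraries that held more retinal transcripts it was 0.173. HSPA13 lies on chromosome 14 at 142215376 to 142227082 on the minus strand, in the coordinates of the deposited table. Chromosome numbers here follow the RefSeq sequence names of the OryCun2.0 rabbit assembly that the table uses. Heat shock and unfolded protein genes as a list were divided: of 31 tested, 16 stood higher and 15 lower, with a median log2 of 0.03 beside 0.01 over all genes tested. HSPE1, the small partner of the mitochondrial chaperonin, came next without a call, at 32.4, 27.7 and 24.1 FPKM in blue_light and 20.3, 19.2 and 18.4 FPKM in GL (log2 0.50 ± 0.16).

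RPL39 encodes a small protein of the large ribosomal subunit. It stood at 687, 534 and 323 FPKM in blue_light libraries against 133, 121 and 100.3 FPKM in GL libraries. RL libraries ran from 132 to 302 FPKM and control libraries from 372 to 647 FPKM. Blue_light thus lay in and around the control range, with GL at the bottom together with the lowest RL library. The difference was log2 2.08 ± 0.34 (edgeR adjusted p = 0.0466). The call ended in 11 of 22 alternatives (edgeR adjusted p 0.055 to 0.931). Leaving out blue_light 1 gave 0.208, blue_light 2 gave 0.102, GL 1 gave 0.2, GL 2 gave 0.101 and GL 3 gave 0.293, at log2 1.83 to 2.16. The gene lies on the X chromosome at 68525263 to 68527920, minus strand. A second entry of the same name was listed at 0 in all 12 libraries. The family of 11 entries annotated as RPL39 or a copy summed to 246 ± 83.7 CPM (counts per M counts) in blue_light and 59.0 ± 7.86 CPM in GL (mean ± SD, n = 3 each). The called gene alone made up 237 CPM of this in blue_light and 56.0 CPM in GL. The sum therefore tells little about the other entries. Among those tested, none of which was called, LOC100343258 and LOC108178108 overlapped between the groups. LOC108176062 lay wholly higher in blue_light (0.55 to 2.39 CPM against 0.232 to 0.401 CPM in GL), as did LOC108176708 (2.39 to 5.81 against 0.401 to 1.56 CPM).

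Cytosolic ribosomal protein genes as a list were divided in direction. Of 64 tested, 37 stood higher and 27 lower in blue_light, with a median log2 of 0.05, and RPL39 was the 1 member called by edgeR. The groups did not overlap for 18 higher members (28.1%, against 15.3% of all genes tested) and 7 lower ones (10.9%, against 15.2%). An unadjusted p below 0.05 was reached by 11 higher members (17.2%, against 9.61%) and 2 lower ones (3.12%, against 8.25%). DESeq2 called 4 members, all higher, beside 1.31% of all genes called higher. RPL35A, of the large subunit, came closest in size without a call, at 1794, 1813 and 1581 FPKM in blue_light and 768, 640 and 481 FPKM in GL (log2 1.42 ± 0.40, edgeR adjusted p = 0.199). Its blue_light libraries were also above all RL libraries (501 to 731 FPKM), but control 3 reached 1627 FPKM. RPL22 stood at 229, 170 and 146 FPKM in blue_light and 97.5, 91.9 and 95.9 FPKM in GL (log2 0.89 ± 0.23). RPS24, of the small subunit, stood at 1747, 1603 and 1165 FPKM in blue_light and 940, 992 and 915 FPKM in GL (log2 0.62 ± 0.18). With the low-count set as a covariate, 58 of the 64 stood higher with a median of 0.36. The balance of this list therefore depended on that setting.

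The largest single block of calls consisted of copies of the gene for ribosomal protein L17, a protein at the exit of the ribosomal tunnel. The table holds 29 entries annotated as RPL17 or a copy of it, and 7 of them were called, all higher in blue_light. Many of the 29 had no count in any of the 12 libraries. Beside the parent gene, given below, the other entries tested were LOC100352781, LOC108176634 and LOC100353915. These were not called but also lay wholly higher in blue_light, LOC100353915 narrowly (lowest blue_light library 7.14 CPM, highest GL library 6.82 CPM). The family was put together after the values were seen. How reads that match several copies were counted is not given in the sources used here, so the value of each copy is uncertain. The 7 lie on 6 chromosomes and span 589 to 641 bases each. LOC100339314, the most abundant of them, stood at 354, 344 and 467 FPKM in blue_light against 42.6, 23.9 and 22.9 FPKM in GL (log2 3.67 ± 0.47, edgeR adjusted p = 0.0131). It lies on chromosome 2 at 27709518 to 27710158. LOC100355297, on chromosome 11 at 61745225 to 61745864, stood at 156, 145 and 113 FPKM in blue_light against 7.79, 14.4 and 7.09 FPKM in GL (log2 3.78 ± 0.36, edgeR adjusted p = 0.0011). LOC100339582 stood at 185, 218 and 134 FPKM in blue_light against 30.9, 34.7 and 40.1 FPKM in GL (log2 2.30 ± 0.32). In each of these, every GL library lay far below every blue_light library. The call of LOC100355297 held when any 1 library was left out, that of LOC100339314 ended without GL 3 (adjusted p 0.0889) and that of LOC100339582 without any 1 library but blue_light 3 (0.0538 to 0.131).

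The other 4 copies were rarer or closer to the threshold. LOC108178018 stood at 45.1, 70.7 and 82.2 FPKM in blue_light and 12.9, 14.0 and 13.2 FPKM in GL (log2 2.27 ± 0.36, edgeR adjusted p = 0.0459). LOC100350920 stood at 17.1, 11.8 and 9.88 FPKM in blue_light and 1.33, 0.876 and 0.957 FPKM in GL (log2 3.56 ± 0.50). For LOC100354651 the counts were 250, 227 and 125 in blue_light and 1, 0 and 4 in GL. For LOC100355319 they were 103, 63 and 100 in blue_light and 4, 1 and 8 in GL. Since the GL counts of both were below a floor of 3 fragments, about 11.2 counts, no fold is given for them. Their calls had edgeR adjusted p of 0.0131 and 0.0310. Leaving out 1 library ended the call of LOC100354651 for GL 1 alone (adjusted p 0.0849), that of LOC100350920 for all but blue_light 3 (0.0538 to 0.137), that of LOC108178018 for all 6 (0.0592 to 0.274) and that of LOC100355319 for all 6 (0.0538 to 0.2).

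Summed over the 29 entries, RPL17 differed much less than its copies did. The sum was 1504, 1340 and 1244 CPM in blue_light libraries and 1105, 1154 and 1056 CPM in GL libraries. The groups did not overlap, but the exact permutation p was 0.1, the smallest that 3 against 3 allows. The 7 called copies summed to 518 ± 21.4 CPM in blue_light and 59.8 ± 2.89 CPM in GL. The parent gene, the entry named RPL17 in the RefSeq gene table, stood the other way, at 734 ± 92.6 CPM in blue_light and 1025 ± 48.7 CPM in GL. Its share of the family sum took 3 separate levels over the 12 libraries. It was 55.8%, 51.5% and 53.9% in blue_light libraries and 92.3%, 93.2% and 92.6% in GL libraries. In RL it was 8.57%, 53.4% and 9.54%, and in control 8.34%, 52.8% and 53.8%. No library lay between these levels, and RL and control each held libraries of 2 levels, so the level did not follow the group labels outside blue_light and GL. Nor did it follow the low-count set, since blue_light libraries, in the set, shared the middle level with RL 2 and control 2 and 3, which are outside it.

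**Figure D2:**
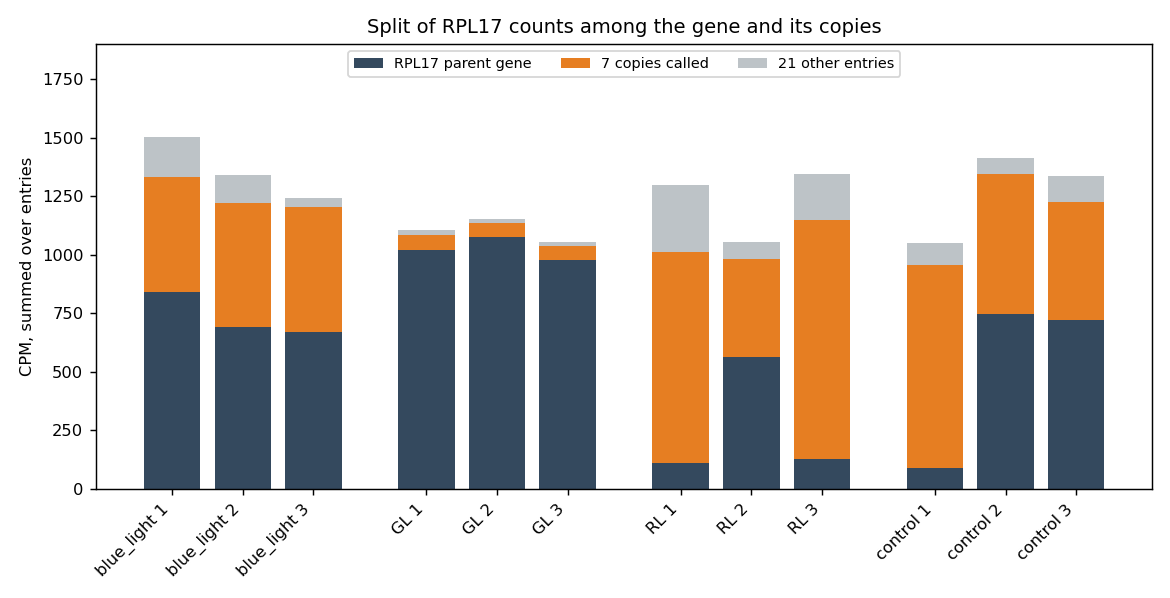
CPM of the RPL17 parent gene, the 7 called copies and the 21 other entries, stacked, in each of the 12 libraries. The parent holds 92.3% to 93.2% of the sum in GL, 51.5% to 55.8% in blue_light, RL 2 and control 2 and 3, and 8.34% to 9.54% in RL 1, RL 3 and control 1, while the family sum stays between 1049 and 1504 CPM.

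LOC100344965 was the call in which blue_light rather than GL stood apart. It is annotated as coupling factor 6, a part of the stalk of mitochondrial ATP synthase, and spans 466 bases on chromosome 1 at 181107705 to 181108170. It stood at 67.5, 49.1 and 52.2 FPKM in blue_light libraries against 10.2, 10.1 and 8.71 FPKM in GL libraries. RL libraries held 8.72 to 11.3 FPKM and control libraries 9.71 to 12.5 FPKM, so all blue_light libraries were above all 9 others. The difference was log2 2.50 ± 0.23 (edgeR adjusted p = 0.0011). The call held when any 1 library was left out. It ended in 3 of 22 alternatives: without 3 cornea libraries that held more retinal transcripts (edgeR adjusted p 0.135), with the low-count set as a covariate (0.113) and with a replicate block in the 6 libraries alone (0.0703). The full-length gene ATP5J stood at 62.5 ± 6.38 CPM in blue_light and 71.4 ± 3.16 CPM in GL, and the 7 entries of that family summed to 118, 97.7 and 98.6 CPM in blue_light and 108, 93.4 and 98.8 CPM in GL (exact permutation p = 0.7). Oxidative phosphorylation genes as a list were split, with 12 of 25 higher, 13 lower and none called by edgeR or DESeq2. The groups did not overlap for 4 higher members (16%, against 15.3% of all genes tested) and 8 lower ones (32%, against 15.2%). An unadjusted p below 0.05 was reached by 3 higher members (12%, against 9.61%) and 1 lower one (4%, against 8.25%).

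The 3 genes that fell in blue_light showed a different arrangement: blue_light libraries were the lowest and GL libraries the highest of the 12. SPOCK2 encodes testican-2, a secreted proteoglycan of the extracellular matrix. It stood at 4.50, 4.66 and 4.38 FPKM in blue_light and 9.50, 11.3 and 11.1 FPKM in GL, with RL at 4.95 to 6.19 FPKM and control at 6.33 to 8.15 FPKM. The difference was log2 −1.28 ± 0.17 (edgeR adjusted p = 0.0159). The gene lies on chromosome 18 at 15303987 to 15324747, plus strand.

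TMEM30B encodes a partner subunit of the flippases that move phospholipids between membrane leaflets. It stood at 6.20, 8.93 and 7.53 FPKM in blue_light and 19.3, 17.1 and 22.6 FPKM in GL, with RL at 10.2 to 11.7 FPKM and control at 10.02 to 10.8 FPKM. No RL or control library reached either group. The difference was log2 −1.42 ± 0.21 (edgeR adjusted p = 0.0212), and the gene lies on chromosome 20 at 8846790 to 8848136, minus strand. ARHGEF28, a guanine nucleotide exchange factor that acts on small GTPases, stood at 7.12, 8.37 and 7.14 FPKM in blue_light and 13.4, 12.96 and 13.5 FPKM in GL. RL ran from 8.37 to 9.64 FPKM and control from 9.07 to 9.89 FPKM. Its difference was log2 −0.86 ± 0.14 (edgeR adjusted p = 0.0496), and it lies on an unplaced sequence. The call of SPOCK2 ended in 8 of 22 alternatives, among them omission of blue_light 1 (edgeR adjusted p 0.111), 2 (0.0538) or 3 (0.0801) or GL 3 (0.0889). That of TMEM30B ended in 9, among them omission of blue_light 1 (0.137) or 3 (0.0898) or GL 1 (0.0849) or 3 (0.137), and that of ARHGEF28 in 16, among them omission of any 1 library (0.0539 to 0.274). The log2 difference of each of the 3 was negative in every alternative.

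**Figure D3:**
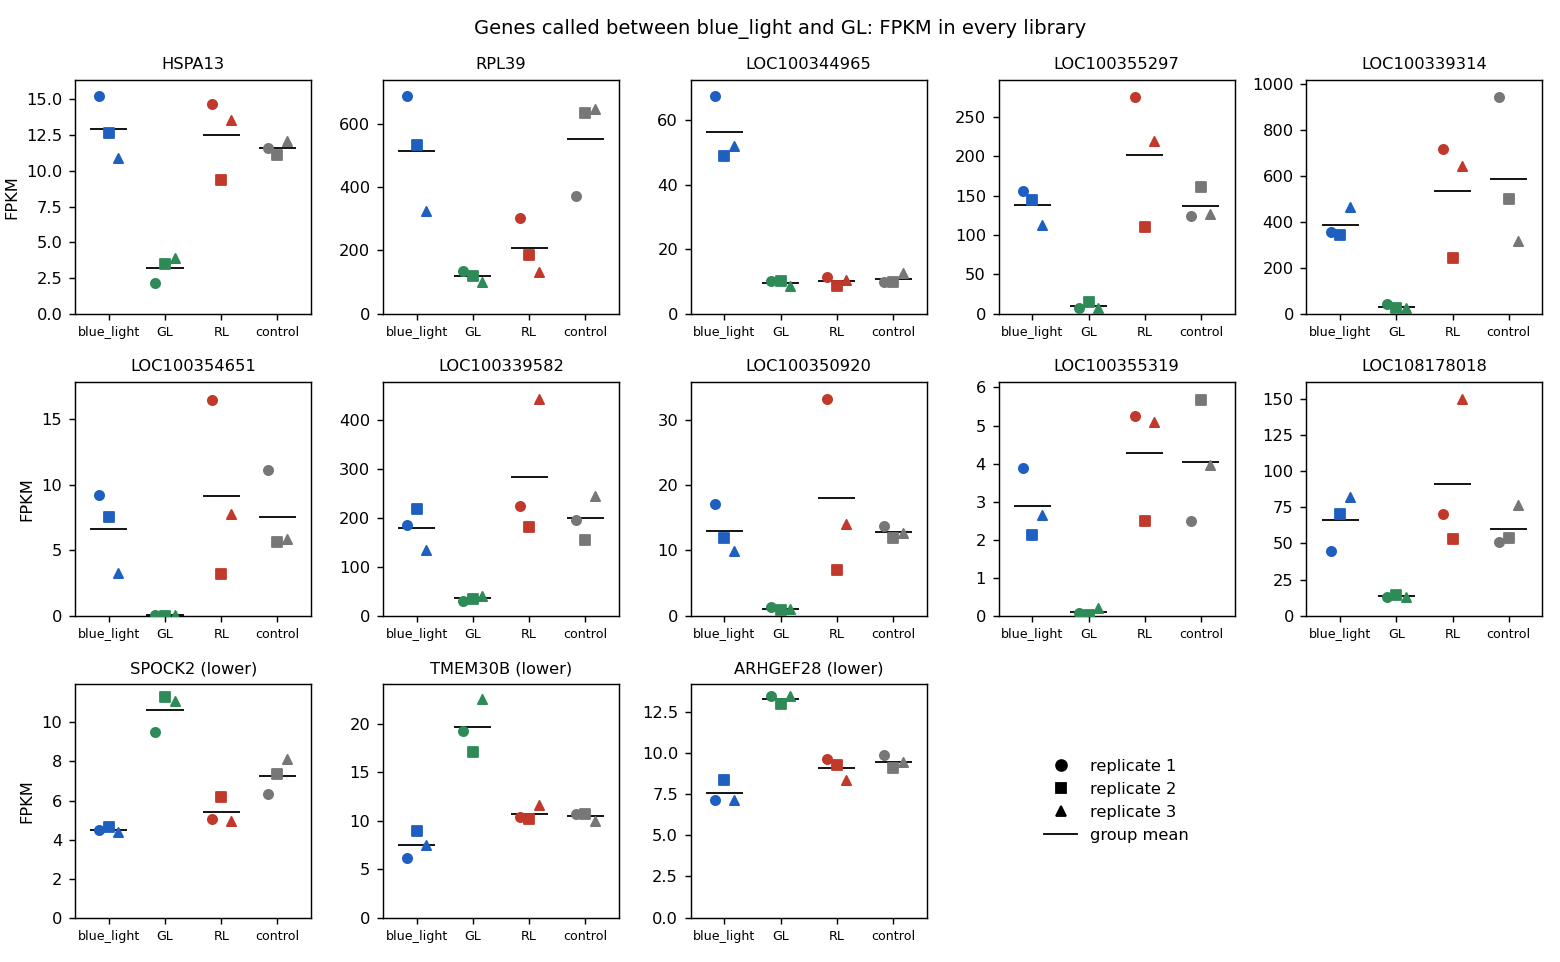
FPKM (linear axes from 0) of the 13 called genes in every library of blue_light, GL, RL and control; symbols mark replicates and bars group means. GL is the lowest group in 9 of the 10 panels of genes higher in blue_light, LOC100344965 is high in blue_light alone, and in the 3 panels marked lower GL is highest and blue_light lowest.

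Setting each called gene against all 12 libraries on the CPM scale showed which group stood apart. GL lay below all 9 other libraries in 9 of the 10 genes higher in blue_light, and blue_light lay above all 9 others in 1. For RPL39 this separation was narrow: its lowest RL library held 64.6 CPM and the highest GL library 62.3 CPM. In the 3 genes lower in blue_light both groups stood apart, on opposite sides. Over all genes tested, GL alone stood apart in 580 (4.36%), blue_light alone in 132 (0.991%) and both on opposite sides in 7 (0.0526%). Of the last 7, 3 are the called genes SPOCK2, TMEM30B and ARHGEF28, and SLC25A24 and HDAC5 are 2 more.

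SLC25A24 and PNPLA6 came closest to the threshold from outside. SLC25A24, a carrier that exchanges ATP and phosphate across the inner mitochondrial membrane, stood at 21.3, 21.6 and 19.3 FPKM in blue_light against 11.2, 11.6 and 11.2 FPKM in GL (log2 0.83 ± 0.14, edgeR adjusted p = 0.0551). Its RL and control libraries lay between, at 12.7 to 15.3 FPKM. PNPLA6, a phospholipase of nerve and other tissues, stood at 7.70, 7.79 and 7.82 FPKM in blue_light and 16.1, 13.04 and 16.98 FPKM in GL (log2 −1.02 ± 0.17, edgeR adjusted p = 0.0511). Leaving out 1 library gave PNPLA6 an edgeR adjusted p of 0.0447, without GL 2, to 0.288. Control libraries, at 7.09 to 9.86 FPKM, lay near blue_light, and RL libraries, at 12.9 to 14.4 FPKM, near GL. HDAC5, a class II histone deacetylase, stood at 9.61, 9.66 and 11 FPKM in blue_light and 19.2, 16.5 and 23.8 FPKM in GL (log2 −1.02 ± 0.18).

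Further genes without a call, taken by smallest unadjusted p, are given as values. PHACTR2, a regulator of protein phosphatase 1 and actin, stood at 18.7, 21.1 and 21.04 FPKM in blue_light against 11.6, 6.60 and 8.401 FPKM in GL (log2 1.16 ± 0.21), with control and RL at 14.6 to 24.1 FPKM. SPINK5, the serine protease inhibitor that restrains kallikreins in cornified epithelia, stood at 7.75, 8.92 and 5.56 FPKM in blue_light and 3.09, 1.51 and 1.40 FPKM in GL (log2 1.86 ± 0.33). KLK10, a member of the kallikrein family, stood the other way, at 2.57, 0.816 and 1.58 FPKM in blue_light and 6.46, 6.15 and 7.54 FPKM in GL (log2 −2.07 ± 0.43). For SPINK5 blue_light was above all other libraries, whereas for KLK10 GL was, with RL and control at 2.03 to 3.28 FPKM. AAK1, a kinase of clathrin-mediated endocytosis, stood at 4.86, 5.87 and 4.79 FPKM in blue_light against 1.55, 1.09 and 1.20 FPKM in GL (log2 1.98 ± 0.37). The other higher ones were SAMD9 (log2 1.55 ± 0.30), ATP13A3 (2.04 ± 0.41), TRMT13 (1.27 ± 0.25), ZNF248 (2.23 ± 0.40), ZNF605 (2.57 ± 0.49) and ATP6AP1L (1.88 ± 0.34), each with edgeR adjusted p of 0.0734 to 0.122. SPINK5 passed the test without GL 1 (edgeR adjusted p 0.0378) and ZNF248 without GL 3 (0.0234). Over the omissions of each 1 library the edgeR adjusted p reached 0.406 for SPINK5 and 0.357 for ZNF248.

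On the lower side, KRT8, a keratin of simple epithelia, stood at 12.4, 23.0 and 15.1 FPKM in blue_light and 41.9, 39.1 and 51.2 FPKM in GL (log2 −1.43 ± 0.30). Control and RL libraries held 23.1 to 44.8 FPKM, so blue_light was the lowest group, by a narrow margin between blue_light 2 and RL 2. LASP1, an actin-binding adaptor, stood at 19.6, 16.2 and 23.2 FPKM in blue_light against 43.3, 45.1 and 43.5 FPKM in GL (log2 −1.20 ± 0.25), and GL was above every other library. HKDC1, a hexokinase, stood at 1.41, 1.57 and 1.85 FPKM in blue_light and 3.94, 2.61 and 4.81 FPKM in GL (log2 −1.27 ± 0.27). TST, the sulfur transferase rhodanese (log2 −1.28 ± 0.26), EML2, a microtubule-associated protein (−1.27 ± 0.26), and CCDC69 (−0.93 ± 0.19) were lower to a like degree, with edgeR adjusted p of 0.124.

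A share of these differences was also present between libraries of the same label. Control 1 and RL 1 belong to the low-count set and their group mates do not, so the comparison of each with its mates holds the label constant. Among the 1280 genes higher in blue_light at an unadjusted p below 0.05, both control 1 and RL 1 lay above both of their mates in 600 (46.9%). Among the 1098 lower ones both lay below their mates in 519 (47.3%). Over all genes tested these shares were 24.3% and 22.3%. Of the 13 called genes, 3 of the 10 higher ones had control 1 and RL 1 above their mates, and of the 3 lower ones SPOCK2 had both below and ARHGEF28 both above. HSPA13 had control 1 between control 2 and 3, but RL 1 above RL 2 and 3 (log2 0.33). With the set as a covariate no gene was called by edgeR, with 549 higher and 489 lower at an unadjusted p below 0.05.

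**Figure D4:**
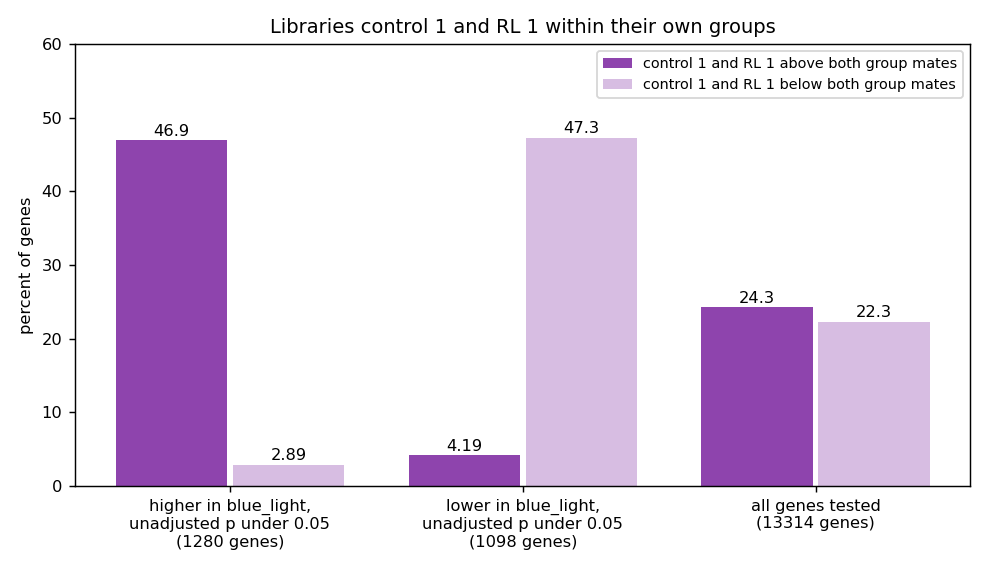
Percent of genes in which control 1 and RL 1, the low-count libraries of their groups, both lay above (dark) or both below (light) their 2 group mates. The share above was 46.9% among genes higher in blue_light and the share below 47.3% among genes lower in blue_light, against 24.3% and 22.3% of all genes tested.

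The 37 gene lists, which cover corneal and other cell types, matrix, light and stress responses, growth and metabolism, held 625 genes tested, of which 2 were called by edgeR, HSPA13 and RPL39, and 21 by DESeq2. Of the 21, 12 were higher and 9 lower, and over all genes with an adjusted p DESeq2 called 1.31% higher and 1.01% lower. At an unadjusted p below 0.05 there were 54 higher members (8.64%, against 9.61% of all genes tested) and 62 lower ones (9.92%, against 8.25%). The groups did not overlap for 72 higher members (11.5%, against 15.3% of all genes tested) and 115 lower ones (18.4%, against 15.2%). All statements on lists below are therefore counts of direction and values, without a claim of change, unless a gene is said to have been called.

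Genes of the clock lay on both sides. Of 19 clock genes tested, 9 stood higher and 10 lower, with a median log2 of −0.06. NR1D1, the nuclear receptor that represses the clock activator ARNTL, stood at 16.9, 17.9 and 16.1 FPKM in blue_light and 42.6, 32.4 and 49.4 FPKM in GL (log2 −1.33 ± 0.35, edgeR adjusted p = 0.191). TEF, an output factor of the clock, stood at 27.7, 26.6 and 37.0 FPKM in blue_light and 43.8, 65.2 and 51.5 FPKM in GL (log2 −0.85 ± 0.23). CRY1, a core repressor, stood at 21.4, 18.1 and 20.4 FPKM in blue_light and 13.03, 15.7 and 11.6 FPKM in GL (log2 0.53 ± 0.17). Each of these, named by smallest p, separated the groups. Of the 19, 2 did so on the higher side (10.5%, against 15.3% of all genes tested) and 5 on the lower side (26.3%, against 15.2%). Both NR1D1 and TEF were called by DESeq2, beside 1.01% of all genes called lower. For NR1D1, RL 2 at 13.1 FPKM was as low as blue_light, with the other RL libraries at 41.6 and 41.7 FPKM.

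Of 8 opsin genes, 3 reached the filter and all 3 stood lower in blue_light. OPN3, a non-visual opsin found widely in skin and eye, stood at 13.7, 15.5 and 11.6 FPKM in blue_light and 39.7, 18.1 and 29.8 FPKM in GL (log2 −1.14 ± 0.32, edgeR adjusted p = 0.199). OPN5, an opsin sensitive to ultraviolet and violet light, stood at 2.003, 1.99 and 1.26 FPKM in blue_light and 3.34, 4.53 and 1.44 FPKM in GL, and the groups overlapped. OPN4, melanopsin, had no count in any of the 6 libraries, which allows up to 3 fragments in each. Immediate early genes, which are transcribed within minutes of a stimulus, stood higher in 12 of 17, with a median log2 of 0.36. FOS stood at 73.0, 162 and 278 FPKM in blue_light against 39.7, 33.2 and 53.1 FPKM in GL (log2 1.99 ± 0.55). DUSP1, a phosphatase that ends MAP kinase signals, stood at 33.3, 83.8 and 108 FPKM in blue_light and 20.4, 44.1 and 31.4 FPKM in GL, with overlap. RL and control libraries reached 331 FPKM for FOS and 209 FPKM for DUSP1, so blue_light was not above them. KLF6 stood at 19.2, 21.3 and 14.6 FPKM in blue_light and 13.9, 11.2 and 7.84 FPKM in GL (log2 0.71 ± 0.22).

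**Figure D5:**
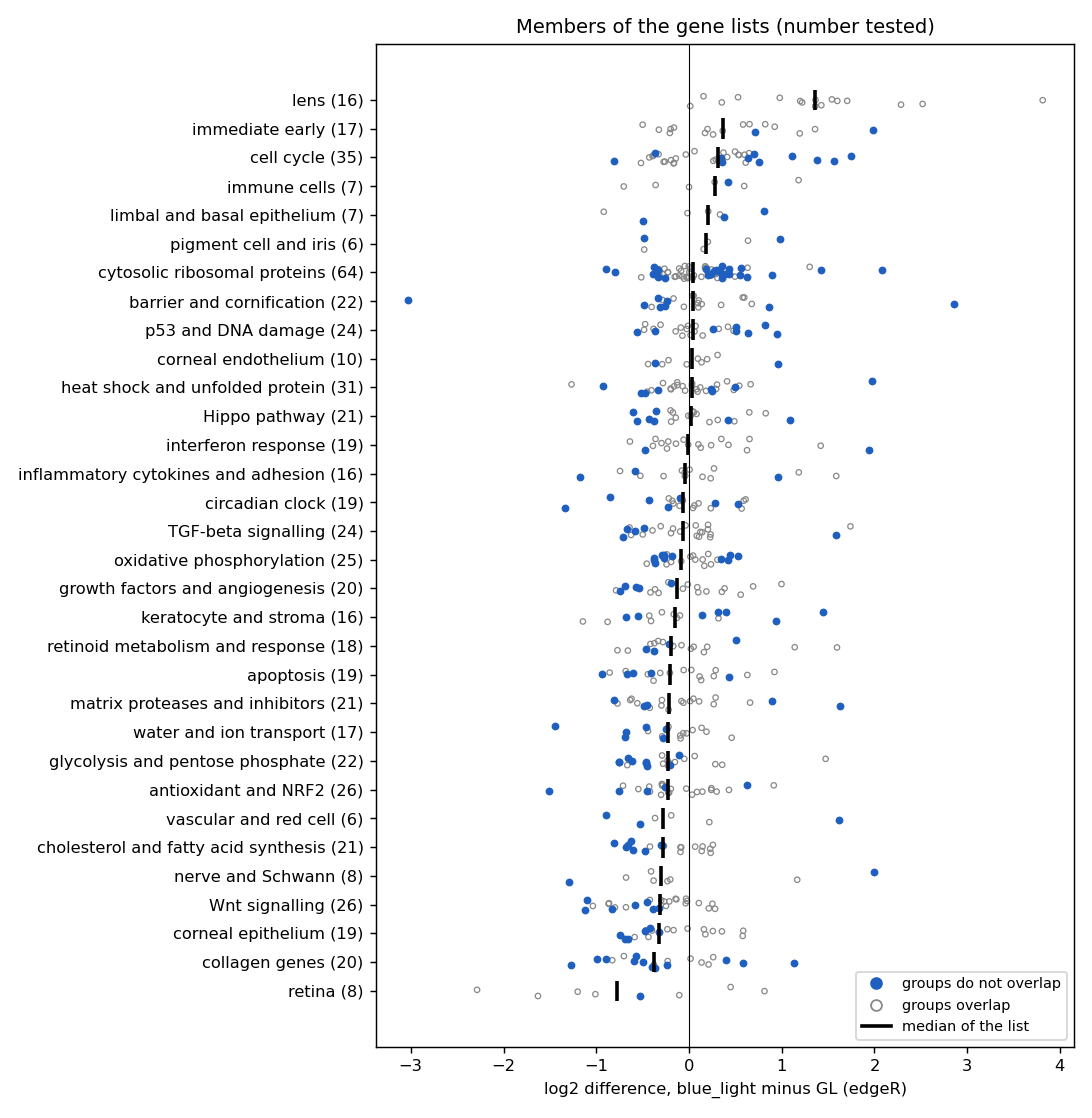
Log2 difference of blue_light minus GL (horizontal axis, edgeR) for the tested members of the 32 gene lists with at least 5 members tested, 1 row per list, ordered by median (black bar); filled points are genes whose blue_light and GL libraries do not overlap. Lens lies at 1.36 with no filled point and retina at −0.77 with 1, and every other median lies between −0.37 and 0.36.

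Epithelial genes of the cornea stood lower in 13 of 19, with a median log2 of −0.32, and 6 of the 19 separated the groups on the lower side (31.6%, against 15.2% of all genes tested) and none on the higher side (15.3% of all genes). KRT5, the keratin of basal cells, stood at 163, 368 and 255 FPKM in blue_light and 427, 442 and 420 FPKM in GL (log2 −0.75 ± 0.31). AQP5, the epithelial water channel, stood at 1275, 955 and 1551 FPKM in blue_light and 1878, 1941 and 2108 FPKM in GL (log2 −0.69 ± 0.23), with GL above all 9 other libraries. TKT, transketolase, which is unusually abundant in cornea, stood at 1072, 1029 and 1705 FPKM in blue_light and 1935, 1888 and 2032 FPKM in GL (log2 −0.66 ± 0.28). KRT3, the partner of KRT12, stood at 1693, 1967 and 2536 FPKM in blue_light and 2914, 2730 and 2714 FPKM in GL (log2 −0.47 ± 0.25). EHF, an epithelial transcription factor, stood higher, at 37.1, 36.6 and 21.6 FPKM in blue_light and 21, 19.9 and 20.8 FPKM in GL. In a bulk sample, fewer cells of a type and less RNA per cell cannot be told apart. With total count as a covariate 12 of the 19 stood lower with a median of −0.04, and with the low-count set as one 14 did with a median of −0.18.

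Barrier and cornification genes were divided, 12 of 22 higher and 10 lower, with the 2 largest differences of opposite sign. PADI3, which citrullinates proteins in cornifying cells, stood at 1.86, 14.7 and 1.51 FPKM in blue_light and 58.4, 37.6 and 49.4 FPKM in GL (log2 −3.03 ± 0.70, edgeR adjusted p = 0.176). RL and control libraries held 30.6 to 53.03 FPKM, so blue_light was the low group. Without blue_light 2 the difference was log2 −4.90 and passed the test (edgeR adjusted p 0.000103). Over the omissions of each 1 library the PADI3 difference ran up to log2 −2.58 and the edgeR adjusted p up to 0.615. DSG3, a desmosomal cadherin of stratified epithelia, stood at 2.66, 11.9 and 2.28 FPKM in blue_light and 0.570, 1.53 and 0.164 FPKM in GL (log2 2.86 ± 1.30). Its spread inside both groups was wide, and control 3 reached 8.01 FPKM. Limbal and basal genes stood higher in 4 of 7. Water and ion transport genes stood lower in 13 of 17 with a median log2 of −0.22, among them AQP1, the water channel of keratocytes and endothelium, at 664, 995 and 978 FPKM in blue_light and 1334, 1143 and 1636 FPKM in GL. Of the 17, 8 stood higher and 9 lower with the low-count set as a covariate (median −0.01), and AQP1 then stood at log2 0.068. SLC16A3, a lactate exporter, stood at 1.27, 1.16 and 1.29 FPKM in blue_light and 2.50, 3.12 and 4.24 FPKM in GL (log2 −1.44 ± 0.43). Corneal endothelium genes were even, 5 of 10 higher and 5 lower.

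Keratocyte genes were divided, with 6 of 16 higher and 10 lower in blue_light. The balance turned to 10 higher and 6 lower with the low-count set as a covariate and to 11 and 5 with total count as one. OGN, osteoglycin, stood at 3470, 2150 and 2160 FPKM in blue_light and 1535, 1339 and 1077 FPKM in GL (log2 0.94 ± 0.30). ASPN, asporin, stood at 8.59, 3.02 and 5.16 FPKM in blue_light and 1.91, 1.86 and 2.18 FPKM in GL (log2 1.44 ± 0.37). LUM, lumican, stood at 3127, 2461 and 2614 FPKM in blue_light and 2268, 1895 and 2224 FPKM in GL (log2 0.32 ± 0.19). The log2 difference was 0.165 for OGN and −0.09 for LUM with the low-count set as a covariate. For LUM, RL 1 at 2902 FPKM stood above RL 2 and 3 at 2145 and 2243 FPKM, and control 1 at 2586 FPKM above control 2 and 3 at 1799 and 1908 FPKM. OGN had the same order, with RL 1 at 1662 FPKM above 953 and 1200 FPKM and control 1 at 2519 FPKM above 1240 and 1331 FPKM. PRELP, another small proteoglycan, stood the other way, at 13.3, 89.3 and 48.0 FPKM in blue_light and 87.3, 132 and 106 FPKM in GL, with overlap.

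Of 20 collagen genes, 13 stood lower in blue_light and 7 higher, with a median log2 of −0.37, and 9 of the 20 separated the groups on the lower side (45%, against 15.2% of all genes tested) and 3 on the higher side (15%, against 15.3%). COL1A1, a chain of the main fibril collagen, stood at 348, 1067 and 2454 FPKM in blue_light and 2714, 3235 and 3170 FPKM in GL (log2 −1.27 ± 0.60). Leaving out 1 library moved the COL1A1 difference between log2 −2.14, without blue_light 3, and −0.83, without blue_light 1. COL5A1, of the collagen that limits fibril width, stood at 123, 196 and 330 FPKM in blue_light and 432, 376 and 452 FPKM in GL (log2 −0.996 ± 0.37). In both genes blue_light 1 was the lowest library and blue_light 3 the nearest to GL. COL17A1, of the hemidesmosomes of basal epithelium, stood at 226, 275 and 270 FPKM in blue_light and 339, 394 and 330 FPKM in GL. COL7A1, of the anchoring fibrils, stood higher, at 40.9, 36.02 and 24.3 FPKM in blue_light and 17.5, 16.6 and 10.7 FPKM in GL (log2 1.14 ± 0.46). For COL7A1, RL 1 at 42.9 FPKM stood above RL 2 and 3 at 8.59 and 16.4 FPKM, and control 1 at 39.7 FPKM above control 2 and 3 at 19.4 and 32.0 FPKM. With the low-count set as a covariate the median of the collagen list was −0.07.

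TGF-beta signalling genes were mixed, with 11 of 24 higher and 13 lower. TGFBI, the matrix protein mutated in several corneal dystrophies, stood at 458, 637 and 745 FPKM in blue_light and 884, 1013 and 1035 FPKM in GL (log2 −0.71 ± 0.20), and GL was above all other libraries. SKIL, a feedback inhibitor of SMAD signalling, stood at 16.0, 20.99 and 8.04 FPKM in blue_light and 4.29, 6.97 and 3.33 FPKM in GL (log2 1.59 ± 0.47). PLAU, the plasminogen activator urokinase, stood at 81.0, 131 and 63.6 FPKM in blue_light and 50.2, 60.2 and 34.3 FPKM in GL. Matrix proteases and inhibitors together stood lower in 13 of 21, but 13 stood higher with total count as a covariate (median log2 0.08) and 11 with the low-count set as one. With either covariate 14 of the 24 TGF-beta genes stood higher.

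Wnt signalling genes stood lower in blue_light in 22 of 26, with a median log2 of −0.31 and no call by edgeR. On the lower side 7 of the 26 separated the groups (26.9%, against 15.2% of all genes tested) and 6 had an unadjusted p below 0.05 (23.1%, against 8.25%). DESeq2 called 1 of them, SFRP1, beside 1.01% of all genes called lower. SFRP1, a secreted Wnt antagonist, stood at 5.44, 11.1 and 11.3 FPKM in blue_light and 17.1, 24.0 and 18.2 FPKM in GL (log2 −1.13 ± 0.28, edgeR adjusted p = 0.188). TCF7, a transcription factor of the pathway, stood at 2.51, 3.62 and 1.93 FPKM in blue_light and 4.15, 8.72 and 3.98 FPKM in GL (log2 −1.10 ± 0.35). FZD2, a receptor, stood at 2.90, 3.94 and 5.64 FPKM in blue_light and 7.56, 5.40 and 11.9 FPKM in GL, with overlap. With the low-count set as a covariate 18 of the 26 stood lower with a median of −0.16.

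Metabolic lists stood lower in blue_light but not under every setting. Of 22 glycolysis and pentose phosphate genes, 18 stood lower with a median log2 of −0.23, and 9 of the 22 separated the groups on the lower side (40.9%, against 15.2% of all genes tested). ENO1, enolase, stood at 1084, 1855 and 1597 FPKM in blue_light and 2452, 2291 and 2720 FPKM in GL (log2 −0.76 ± 0.27). LDHB, lactate dehydrogenase B, stood at 5119, 6560 and 5690 FPKM in blue_light and 8046, 7217 and 7824 FPKM in GL (log2 −0.45 ± 0.20). With the low-count set as a covariate, 14 of the 22 stood higher with a median of 0.11, so the direction of this list turned.

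Cholesterol and fatty acid synthesis genes stood lower in 15 of 21 with a median log2 of −0.28. SREBF1, a master transcription factor of lipid synthesis, stood at 43.7, 44.7 and 49.0 FPKM in blue_light and 64.1, 68.2 and 70.9 FPKM in GL (log2 −0.61 ± 0.17). ACACA, which makes malonyl-CoA, stood at 9.57, 9.71 and 10.1 FPKM in blue_light and 14.6, 12.4 and 18.6 FPKM in GL (log2 −0.68 ± 0.21). With the set covariate 14 of the 21 stood higher with a median of 0.10. Retinoid genes stood lower in 11 of 18, and in 7 of 18 with total count as a covariate.

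Stress lists showed no common direction. Antioxidant and NRF2 target genes stood lower in 17 of 26 with a median log2 of −0.23. SOD3, the secreted superoxide dismutase, stood at 23.3, 31.7 and 55.7 FPKM in blue_light and 68.6, 110 and 127 FPKM in GL (log2 −1.51 ± 0.43, edgeR adjusted p = 0.205). GCLC, which makes the glutathione precursor, stood higher, at 25.9, 25.2 and 17.3 FPKM in blue_light and 15.6, 14.5 and 12.99 FPKM in GL (log2 0.63 ± 0.23). Genes of p53 and DNA damage stood higher in 13 of 24, with the checkpoint kinase CHEK1 at 6.53, 4.88 and 4.10 FPKM in blue_light and 3.26, 2.88 and 1.66 FPKM in GL, and ATM at 5.31, 4.43 and 2.91 FPKM in blue_light and 2.18, 2.32 and 2.47 FPKM in GL. Apoptosis genes stood higher in 8 of 19, interferon response genes in 9 of 19, inflammatory and adhesion genes in 7 of 16, growth and angiogenesis factors in 8 of 20 and Hippo pathway genes in 11 of 21. Inflammatory and adhesion genes stood higher in 12 of 16 (median log2 0.48) with the low-count set as a covariate and in 11 of 16 (0.32) with total count as one. Hippo pathway genes stood higher in 7 of 21 with the set and in 9 of 21 with total count.

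Cell cycle genes stood higher in 21 of 35, with a median log2 of 0.31. KIF14, a mitotic kinesin, stood at 2.44, 3.28 and 2.40 FPKM in blue_light and 0.966, 0.717 and 0.679 FPKM in GL (log2 1.74 ± 0.38, edgeR adjusted p = 0.149). CDK1, the kinase that starts mitosis, stood at 19.3, 14.3 and 18.7 FPKM in blue_light and 12.7, 9.28 and 10.6 FPKM in GL (log2 0.64 ± 0.26). HMMR stood at 3.53, 4.71 and 2.76 FPKM in blue_light and 2.18, 1.57 and 1.21 FPKM in GL. These 3 mitotic genes separated the groups. Of the 35, 9 did so on the higher side (25.7%, against 15.3% of all genes tested) and 2 on the lower side (5.71%, against 15.2%). MCM2, of the helicase that licenses replication, stood lower, at 4.37, 3.84 and 5.42 FPKM in blue_light and 8.23, 6.76 and 8.25 FPKM in GL (log2 −0.81 ± 0.28). With the low-count set as a covariate 20 of the 35 stood lower with a median of −0.14.

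Markers of tissue outside the cornea moved with single libraries. The 19 lens genes of the table summed to 21480 FPKM in blue_light 1, against 2792 and 3349 FPKM in blue_light 2 and 3 and 1062, 4067 and 4368 FPKM in GL. All 16 lens genes tested stood higher in blue_light with a median log2 of 1.36, but without blue_light 1 only 5 did and the median was −0.06. MIP, the main membrane protein of lens fibres, stood at 216, 3.49 and 5.62 FPKM in blue_light and 1.10, 5.71 and 8.37 FPKM in GL. CRYAA, an alpha crystallin, stood at 5258, 744 and 1006 FPKM in blue_light and 246, 1188 and 1437 FPKM in GL, so both genes overlapped between groups. The 29 retinal genes summed to 199, 99.1 and 126 FPKM in blue_light and 116, 113 and 476 FPKM in GL, with GL 3 the highest. Without GL 3, 7 of the 8 tested stood higher in blue_light, in place of 2 of 8. Without blue_light 1, GL 3 and control 2, which carry more retinal transcripts than their mates, no gene was called by edgeR, with 264 higher and 209 lower at an unadjusted p below 0.05. This fit holds fewer libraries of both groups and so has less power. The log2 difference was then 2.04 for HSPA13 (1.98 with all libraries), 2.305 for LOC100344965 (2.50) and −1.16 for TMEM30B (−1.42). The part of these tissues in the called genes was not tested.

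Other cell types were rare or even. Summed over each list, immune genes reached 24.3 to 38.1 FPKM in blue_light and 31.2 to 40.4 FPKM in GL, vascular and red cell genes 32.5 to 46.4 FPKM in blue_light and 42.9 to 62.0 FPKM in GL, and skeletal muscle genes 4.0 to 9.2 FPKM in blue_light and 3.0 to 8.4 FPKM in GL. Pigment cell genes reached 60.7 to 82.4 FPKM in blue_light and 61.2 to 68.8 FPKM in GL, and conjunctival genes 359 to 566 FPKM in blue_light and 342 to 420 FPKM in GL. The lacrimal list was AQP5 almost alone, since its other members summed to little. The T-cell genes CD3D and CD3E and the adipocyte genes FABP4 and LEP had no count in any of the 6 libraries, and the 4 adipocyte genes tested were split, 2 higher and 2 lower. Nerve and Schwann genes summed to 48.5 to 62.9 FPKM in blue_light and 61.1 to 74.6 FPKM in GL. CHAT, which makes acetylcholine and is also present in corneal epithelium, stood at 8.24, 14.7 and 3.82 FPKM in blue_light and 2.33, 2.65 and 1.58 FPKM in GL (log2 1.997 ± 0.53). NGFR, the low-affinity neurotrophin receptor, stood at 7.29, 17.1 and 9.50 FPKM in blue_light and 21.1, 29.8 and 29.8 FPKM in GL (log2 −1.29 ± 0.36). LPL, the lipase of adipocytes and muscle, stood at 0.504, 1.12 and 0.311 FPKM in blue_light and 3.02, 1.23 and 3.39 FPKM in GL, with control 2 and 3 at 21.5 and 11.4 FPKM.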

How the data were processed

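Bulk mRNA sequencing of rabbit cornea was analysed in 12 libraries, 3 each labelled blue_light, GL, RL and control. The deposited table gives, per the file headers, estimated counts and FPKM values for every gene in each library. All deposited counts were whole, and low ones piled up at multiples of about 3.72, so 1 fragment was taken as about 3.72 counts and depths and floors are approximate. The libraries carry no molecular identifiers, so floors cover counting error only. The submitters' processing notes name GRCm38 and mm10, a mouse build, while the table places genes on rabbit RefSeq sequences. The sources used here name neither aligner nor counter. Of 23890 numeric gene identifiers, 20171 were in the RefSeq gene table, used for names only, and 18461 carried the same symbol. A count of 0 had an FPKM of 0.0001. Nucleotide sequences of the genes were not analysed here.

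Genes with at least 1 FPKM in 3 or more of the 6 blue_light and GL libraries were tested with edgeR 4.0.16 (glmQLFit, glmQLFTest, TMM scaling, R 4.3.3) on the counts. All 12 libraries shared 1 fit with 4 group means. Blue_light minus GL was tested two-sided, with Benjamini-Hochberg adjustment over 13314 genes at 0.05, of which 2644 had no symbol. The TMM factors were between 0.948 and 1.049, and the coefficient of biological variation was 0.332. The SE given after each log2 difference is not an output of edgeR. It was derived as the size of the difference divided by the square root of the quasi-likelihood F statistic. Counts divided by TMM-scaled library size gave CPM. Family sums were compared by exact permutation tests (scipy 1.17.1). No 2 libraries held identical values.

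Genes were named by rule. Taken were, in each direction, the 12 genes with a symbol, non-overlapping groups and the smallest p, up to 8 called genes without a symbol, up to 4 members of each list by smallest p, and a look-up list; a few genes that this rule named are not reported here. The 29 RPL17, 7 ATP5J and 11 RPL39 entries were put together after their values were seen, as were SLC25A24 and HDAC5 as examples of genes with both groups apart. The comparison, its genes and the 37 lists were chosen with earlier results of these data known. Alternatives covered scaling, filters, DESeq2 1.42.0, limma 3.58.1 on log2(FPKM + 1) and log2(FPKM + 0.1), array weights, a replicate block, the 6 libraries alone, step-divided counts, covariates for total count and low-count set, and omission of 3 libraries with retinal transcripts or of each library.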

Additional observations from a re-analysis of the deposited data

How the results depend on the processing

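The count of 10 genes higher and 3 lower in blue_light than in GL became 174 and 134 with DESeq2, which called all 13 among them, 152 and 108 by limma with array weights, and 18 higher by limma on log2(FPKM + 1). It became 2 and 0 with total count as a covariate, at an unadjusted p below 0.05 in 280 and 282 genes. It became 0 and 0 with the low-count set as a covariate and 0 and 0 without the 3 libraries with retinal transcripts. In the 6 libraries alone 1 gene was lower. With a replicate block, 9 genes were higher and 2 lower in the fit of 12 libraries, and 1 and 0 in the 6 alone. The deviations of libraries with the same number correlated at 0.069, 0.014 and 0.058, and those with different numbers at −0.086 to 0.016. So few pairs cannot show whether the numbers pair libraries. Leaving out 1 library gave 5 to 12 higher and 0 to 5 lower genes. It gave 5 and 0 without blue_light 1, 5 and 2 without blue_light 2, 9 and 0 without blue_light 3, 5 and 1 without GL 1, 12 and 5 without GL 2, and 5 and 0 without GL 3. Other scalings, filters, limma on log2(FPKM + 0.1) and step-divided counts gave 7 to 15 higher and 2 to 4 lower genes.

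All 13 calls kept their direction in every alternative run. Of 73 other genes given with values, 35 were called in 1 or more of the 22 alternatives and 9 turned. With the low-count set as a covariate the log2 difference was 0.068 for AQP1, −0.075 for COL7A1, −0.248 for KERA, −0.09 for LUM, 0.002 for PRELP and 0.016 for TKT. With total count as a covariate KRT3 stood at 0.036. Leaving out 1 library gave −0.176 to 1.65 for CRYAA and −0.199 to 4.401 for MIP, the lowest without blue_light 1. The cause of these shifts was not tested. Depth limits the rare genes: 3 fragments correspond to about 11.2 counts.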
